A study of Homo sapiens with 8 samples.

Results

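Axon guidance ligands and receptors were followed in H1, an established line of human embryonic stem cells, before and after differentiation toward the 3 germ layers. The genes are the semaphorins of classes 3 to 7, the plexins, ROBO1 to ROBO4, SLIT1 to SLIT3, NTN1 to NTN5, the Eph receptors and the ephrins, selected by their symbols, together with DCC, UNC5B and NRP2. A gene was included where the authors' combined assembly named at least 1 transcript for it, and its reads were summed over those transcripts. This gave 58 genes (31 ligands and 27 receptors) of 20195 in all, carried by 321 of 96614 assembled transcripts. Another symbol, EFNA2, matched but was listed only by position, and it was left out.

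The study has 8 long-read libraries of polyadenylated RNA (PacBio Sequel II), in 4 groups of 2 repeats. The hPSC group (human pluripotent stem cells) was H1 kept on Matrigel in mTeSR1 medium. The other groups were H1 cells collected after 5 days: ectoderm in medium with the inhibitors A83-01, PNU-74654 and Dorsomorphin, endoderm with WNT3A and Activin A, and mesoderm with VEGF, BMP4 and bFGF, with Activin A on the opening day only. All groups share 1 line, and no source says that the repeats came from separate cultures, so p-values measure the spread between these samples, which may be technical. Levels are given as scaled CPM, reads per 1000000 of a library's total after scaling by TMM (trimmed mean of M-values). A gene was called where edgeR's quasi-likelihood test over all 8 libraries gave a Benjamini-Hochberg adjusted p under 0.05.

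Axon guidance cues are secreted or membrane-bound proteins that attract or repel the growing tips of axons, and the same proteins steer migrating cells, sort tissues and shape vessels in the early embryo. Semaphorins act through plexins, with neuropilins as coreceptors for the secreted class. Slits act through Robo receptors, netrins through DCC and UNC5 receptors, and ephrins, which are tethered to the membrane, through Eph receptor tyrosine kinases. In early lineages such as these they are known as cell surface and secreted proteins that set boundaries between tissues.

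Libraries held from 503840 to 1180888 reads, the 2 ectoderm libraries being the deepest. A count of 0 in a library allows up to 3 reads, which is from 2.12 scaled CPM in ectoderm repeat 1 to 7.44 in endoderm repeat 2, for counting error only. The hPSC repeats were the least alike (r = 0.863 across genes, against 0.932 to 0.965 in the layers; genes are not independent replicates).

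Markers of the labelled layers and of other cell types were checked, as scaled CPM summed over each list. Pluripotency markers summed to 4419 and 5201 in hPSC, 1269 and 1611 in ectoderm, 376 and 385 in mesoderm and 2880 and 2616 in endoderm. Endoderm markers summed to 3099 and 3469 in endoderm and at most 14.3 elsewhere. Ectoderm markers summed to 867 and 669 in ectoderm, and 4 of 5 tested rose there, but they also summed to 576 and 605 in endoderm, where OTX2 and PAX6 rose, against 76.8 and 173 in hPSC. Mesoderm markers summed to 1007 and 1088 in the libraries labelled mesoderm, where HAND1, TBX3 and BMP4 rose, KDR fell, and TBXT, MIXL1 and FOXF1 had at most 1 read. In endoderm they summed to 291 and 216, and 4 of 5 tested rose (BMP4, HAND1, MIXL1 and TBX3). All 8 amnion and trophoblast markers rose in the mesoderm libraries, to a summed 5410 and 5808 against 24.5 to 109.5 in the other groups. Neural crest markers summed to 346 and 409 in mesoderm and 51.3 to 124 elsewhere. Of 4 tested, 2 rose and 1 fell in mesoderm, 1 rose and 1 fell in ectoderm, and 1 fell in endoderm. Those that rose in mesoderm were SNAI2 and TFAP2A, which is also on the amnion and trophoblast list. ETS1 fell in ectoderm, and SOX10 had at most 3 reads in any library. Neuron markers summed to 394 and 618 in hPSC, 327 and 296 in ectoderm, 57.3 and 69.4 in mesoderm and 2291 and 2564 in endoderm. Of 6 tested, MAP2 and SYT1 rose and GAP43, NEFL and TUBB3 fell in ectoderm, TUBB3 and STMN2 rose and NEFL fell in endoderm, and 3 fell in mesoderm, while DCX, ELAVL3 and SNAP25 had at most 2 reads in any library. The endothelial marker VWF rose in ectoderm and endoderm, and CDH5 had at most 5 reads in any library. The part of cells with any of these markers in the results below was not tested.

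Windows upstream of 4 transcription starts are printed because all but the EPHA4 start without reads lie before the starts that carried most reads of EPHA4, PLXNA2 and EFNA1, the genes on which the ectoderm, endoderm and mesoderm results turn most. That start is the other one RefSeq lists for EPHA4. Each window holds the 250 bases before a RefSeq start (GRCh38.p14), 5′ to 3′ on the gene's strand. Capitals mark GC boxes (GGGCGG or its complement CCGCCC), the only one of 5 searched motifs found in these windows.
EPHA4 start with reads, chr2:221572305-221572554, minus strand: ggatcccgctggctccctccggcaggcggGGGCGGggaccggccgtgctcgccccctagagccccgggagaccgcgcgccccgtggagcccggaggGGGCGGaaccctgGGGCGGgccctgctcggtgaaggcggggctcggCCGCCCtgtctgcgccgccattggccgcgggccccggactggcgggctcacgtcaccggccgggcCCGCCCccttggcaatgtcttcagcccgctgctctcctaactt
EPHA4 start without reads, chr2:221574203-221574452, minus strand: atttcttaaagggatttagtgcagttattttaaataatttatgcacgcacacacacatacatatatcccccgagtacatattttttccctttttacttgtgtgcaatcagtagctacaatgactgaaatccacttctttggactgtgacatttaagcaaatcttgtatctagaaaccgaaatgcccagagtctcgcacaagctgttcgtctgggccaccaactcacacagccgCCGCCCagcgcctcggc
PLXNA2, chr1:208244385-208244634, minus strand: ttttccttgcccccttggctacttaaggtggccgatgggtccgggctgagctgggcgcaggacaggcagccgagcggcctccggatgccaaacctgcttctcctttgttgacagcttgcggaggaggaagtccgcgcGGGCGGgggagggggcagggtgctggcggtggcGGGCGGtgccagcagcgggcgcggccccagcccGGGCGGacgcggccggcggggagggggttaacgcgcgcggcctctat
EFNA1, chr1:155127626-155127875, plus strand: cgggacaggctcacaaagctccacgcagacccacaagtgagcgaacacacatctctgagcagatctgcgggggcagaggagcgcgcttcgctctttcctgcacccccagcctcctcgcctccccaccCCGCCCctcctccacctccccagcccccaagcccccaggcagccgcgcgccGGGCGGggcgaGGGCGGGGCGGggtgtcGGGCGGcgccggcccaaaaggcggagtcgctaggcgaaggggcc
The first EPHA4 window held 5 GC boxes and 30 CpG, with 78.0% G or C, and the second held 1 GC box and 9 CpG, with 43.2%. The PLXNA2 window held 3 GC boxes and 27 CpG (72.4% G or C), and the EFNA1 window 5 GC boxes, of which 2 share a base, and 24 CpG (73.2%). Over 35116 RefSeq windows of this length, 42.6% held a GC box and the median was 11 CpG. The other motifs, searched on both strands, were TATAAA (in 10.7% of all windows), ATCAAAG (2.26%), AGATAA (9.17%) and CACGTG (6.34%). A match is a run of letters and no evidence of binding.

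Starts are those of the assembled transcripts to which the authors' counts assign reads, not the ends of single reads. Of 692 EPHA4 reads, 670 were in transcripts that start within 250 bases of 221572304 and none in one that starts near 221574202. Of 445 PLXNA2 reads, 400 were in transcripts that start near 208244384, and for EFNA1 all 329 were in transcripts that start near 155127876. ROBO1, whose gene spans chr3:78597240-79767815, was counted mostly in transcripts with an internal start: 623 of 701 reads were in those from 79019725 and 67 in those from 79019591, which are 266 and 132 bases before the RefSeq start at 79019459, and none were in one from the distal start at 79767998. Of the 37 genes described with values, 33 have a RefSeq start in the table used, and 58.8% of their reads were in transcripts that start within 250 bases of one. SEMA6A and EPHA1 were carried almost wholly by 1 reference transcript (2795 of 2855 reads and 635 of 635). By contrast 17.3% of PLXNA1 reads were in its most abundant transcript, 1 of 13.

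These genes were long. Their reads lay in transcripts of 5569 to 6475 nucleotides on average per library, against 2975 to 4650 for all reads, and from 53.0% to 74.2% of their reads matched a reference transcript, against 78.1% to 87.5% over all genes. In total 44 to 55 of the 58 genes had a read in a given library. Of the 58, 38 passed the filter on low counts and were tested, and 20 were not, with 1 to 53 reads over all libraries: DCC, EFNA3, EFNA4, EPHA6, EPHA8, EPHA10, EPHB1, NTN1, NTN4, PLXNA4, PLXNB3, PLXNC1, SEMA3B, SEMA3D, SEMA3E, SEMA6B, SEMA6C, SEMA6D, SEMA7A and SLIT1. A gene could pass the filter through its highest group alone, so the counts below describe the tested genes, not all 58. Of the 38, 37 were called in at least 1 of the 6 comparisons between groups, the exception being PLXND1, and 33 in at least 1 layer against hPSC. Of all 10847 genes or loci tested, 83.8% and 71% met these conditions. EPHA4, EPHB3, NRP2, PLXNA2 and SEMA5A rose in all 3 layers, SEMA4B and UNC5B fell in all 3, and EFNA1 and EPHA2 were called in opposite directions in different layers. Of all tested, 1% were higher in all 3 layers, 3.55% lower in all 3 and 8.21% called in opposite directions. With a trend on transcript length removed from each library, the ectoderm calls of EFNA1, EPHB3, NRP2, PLXNA2 and SEMA5A were lost. The mesoderm calls of NRP2 and SEMA4B were lost in 12 and 14 of the alternative analyses. The 3 layers share the hPSC libraries, so calls in several layers are not independent. In bulk RNA, fewer cells of a type and less RNA per cell cannot be told apart.

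**Figure D1:**
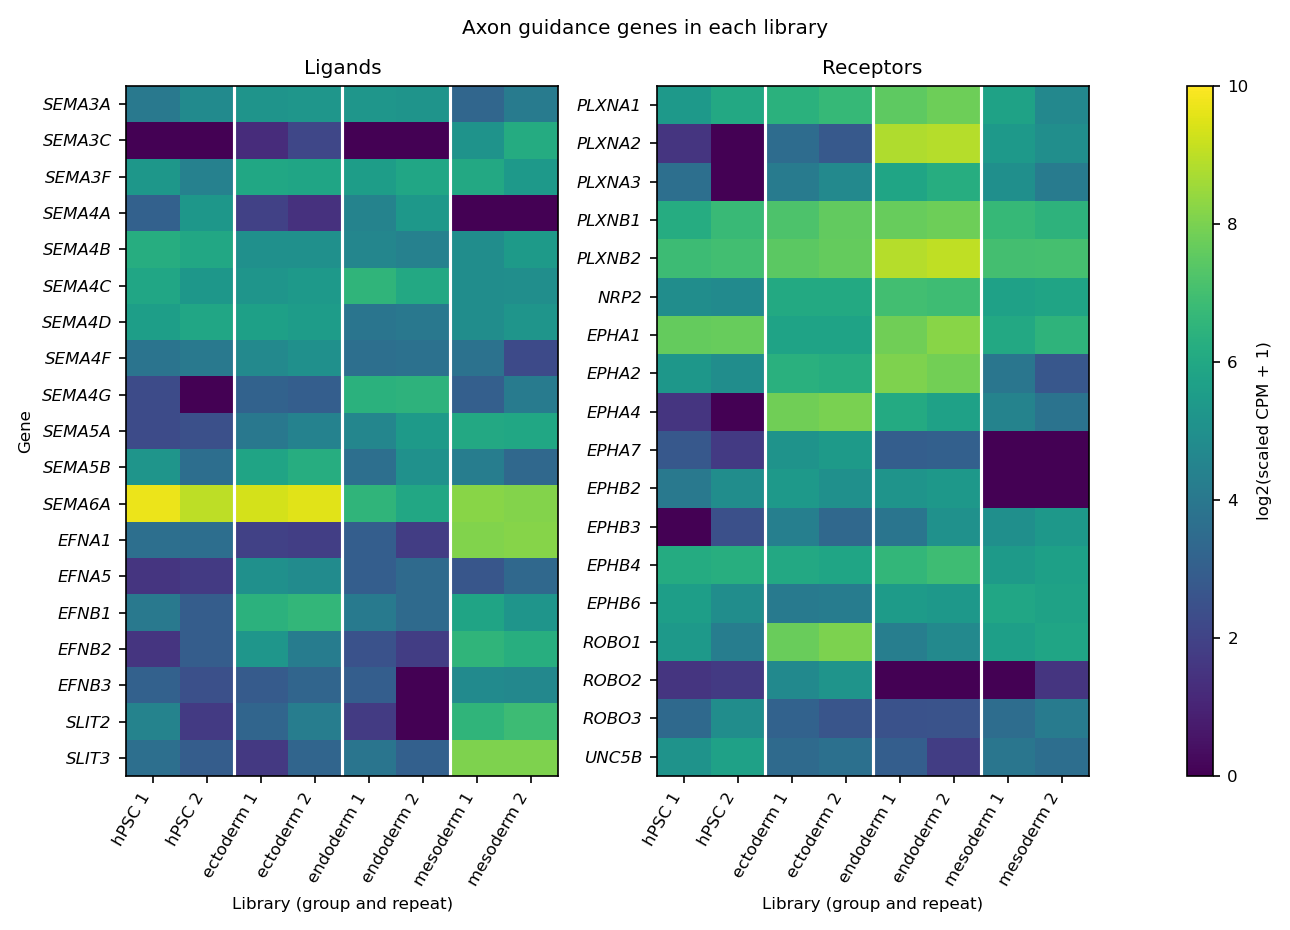
Heat map of 19 ligands (left) and 18 receptors (right), in lines, over the 8 libraries, in columns; colour is log2(scaled CPM + 1), from 0 in dark blue to 10 in yellow. EPHA4 and ROBO1 are strong in both ectoderm libraries, PLXNA2 and SEMA4G in both endoderm libraries, and EFNA1, SLIT2 and SLIT3 in both mesoderm libraries.

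In ectoderm, 3 of 4 tested EphA receptors rose and 1 fell, 2 of 3 Robo receptors rose and 1 fell, and of 5 tested ephrins 3 rose, 1 fell and 1 was not called. EPHA4 went from 1 and 0 reads in hPSC to 324 and 298, and ROBO1, ROBO2, EPHA7, EFNA5, EFNB1 and EFNB2 rose with it. EPHA1, ROBO3, EFNA1 and the netrin receptor UNC5B fell, and EFNB3 was not called. Of 38 tested genes, 22 were called, 15 higher and 7 lower, which is 57.9% against 48.6% of all 10847 genes or loci tested (23.8% higher and 24.8% lower). Receptors were called higher in 9 and lower in 4 of 19, and ligands in 6 and 3 of 19. The median log2 difference was 0.87 over the tested genes (0.81 with groups at 0 set to their bound), against -0.01 over all tested. The split into higher and lower moved with the scaling: it was 21 and 4 with library totals alone, and 8 and 7 once a trend on transcript length was removed from each library, with 13 of the 22 calls shared. Ectoderm libraries had longer transcripts per read (4406 and 4650 nucleotides) than hPSC (3298 and 3114).

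In endoderm, 5 of 6 tested plexins rose. PLXNA2 went from 1 and 0 reads in hPSC to 190 and 193, PLXNA1, PLXNA3 and PLXNB2 rose, and so did NRP2, EPHA2, EPHA4 and the ligand SEMA4G, while SEMA6A and UNC5B fell by over 3 on the log2 scale. Of 38 tested genes, 15 were called, 11 higher and 4 lower, or 39.5% against 27.2% of all tested (13.4% higher and 13.7% lower). Of 19 receptors 9 rose and 1 fell, and of 19 ligands 2 rose and 3 fell. The median log2 difference was 0.42, against -0.13 over all tested. Of the markers of other types, 4 of 5 tested mesoderm markers and 2 of 5 ectoderm markers rose in the same libraries.

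In mesoderm, ligands made up 8 of the 12 genes that rose. EFNA1, SLIT3, SLIT2, EFNB2 and SEMA3C were among them, and EPHB2 and SEMA4A had no read in either library. Of 38 tested genes, 19 were called, 12 higher and 7 lower, or 50% against 35.1% of all tested (16.9% higher and 18.2% lower). Of 19 ligands 8 rose and 3 fell, and of 19 receptors 4 rose and 4 fell. The median log2 difference was 0.10, against 0.01 over all tested. All 8 amnion and trophoblast markers rose in the same libraries.

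**Figure D2:**
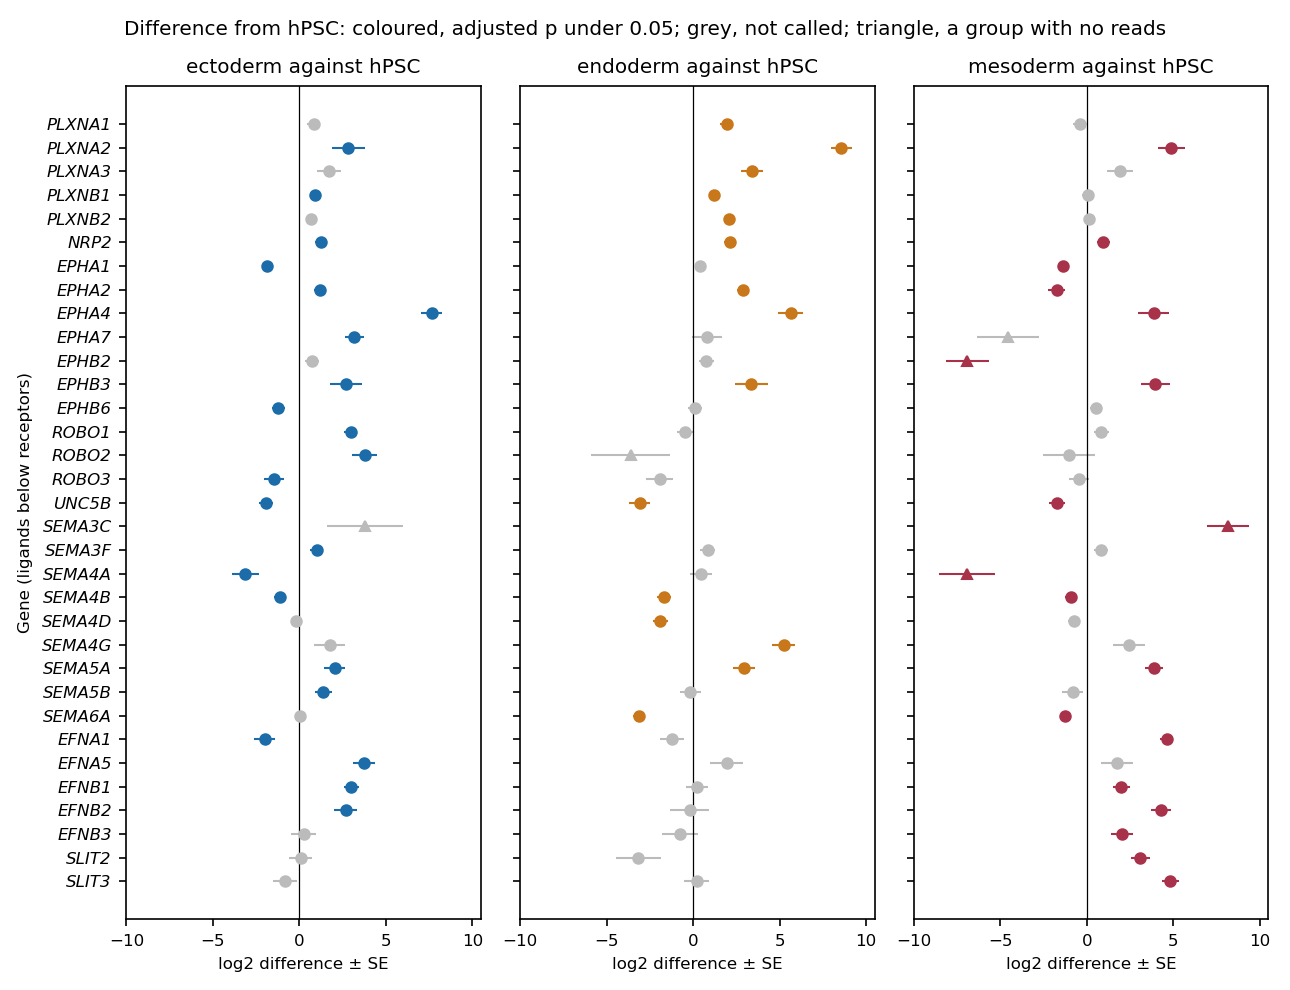
Log2 difference from hPSC in each layer for the 33 genes called in at least 1 layer, from edgeR, with bars of 1 SE. Coloured points have an adjusted p under 0.05, grey points do not, and triangles mark a difference in which 1 group had no read, whose fitted size is no bound. EPHA4 lies furthest to the right in ectoderm at 7.64 and PLXNA2 in endoderm at 8.57, both against 1 hPSC read, and EFNA1, EFNB2, SLIT3 and PLXNA2 lie between 4.29 and 4.89 in mesoderm.

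Eph receptors are the largest family of receptor tyrosine kinases, and their A class binds ephrins anchored by lipid. EPHA4, which binds both ephrin classes, had 1.92 and 0 scaled CPM in hPSC, 229 and 255 in ectoderm, 21.5 and 13.1 in mesoderm and 67.6 and 52.1 in endoderm. Each layer lay above hPSC with no overlap. Pooled over repeats, the ratio to hPSC was 234 in ectoderm (95% exact conditional interval 41.8 to 9247, for counting error only), 58.3 in endoderm (9.99 to 2348) and 16.9 in mesoderm (2.69 to 702), with adjusted p of 3.06e-07, 4.67e-05 and 0.00341. Ectoderm exceeded endoderm by 2.01 ± 0.33 (SE) on the log2 scale (adjusted p = 0.000103) and mesoderm by 3.79 ± 0.38 (3.06e-06). The ratios rest on 1 hPSC read: the fitted ectoderm difference of 7.64 ranged from 6.91 to 10.42 over the alternatives and the mesoderm difference went from 3.86 to 6.63 without hPSC repeat 1, and every alternative kept the calls.

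EPHA2, an EphA receptor common in epithelia, was called in all 3 layers, in 2 directions. It had 38.4 and 28.9 scaled CPM in hPSC, 80.6 and 74.5 in ectoderm, 14.3 and 5.63 in mesoderm and 270 and 233 in endoderm. No group overlapped another. It rose by 2.89 ± 0.36 in endoderm (adjusted p = 3.35e-05) and by 1.19 ± 0.36 in ectoderm (0.0122), and was lower by -1.73 ± 0.49 in mesoderm (0.0133). The mesoderm call was lost without mesoderm repeat 2 (-1.16, adjusted p = 0.167) and with reference-matching transcripts alone (0.218). EPHA1 went the other way in ectoderm: it had 196 and 202 scaled CPM in hPSC, 55.1 and 54.8 in ectoderm, 64.5 and 90.1 in mesoderm and 226 and 295 in endoderm. It fell by 1.85 ± 0.31 in ectoderm (adjusted p = 0.000242) and by 1.36 ± 0.32 in mesoderm (0.00384, lost without mesoderm repeat 1 at 0.0778), and endoderm was not called against hPSC (0.39 ± 0.30). EPHA7, a receptor known from the developing brain, had 3 and 1 reads in hPSC, 49 and 50 in ectoderm, none in mesoderm and 3 and 3 in endoderm. It rose by 3.17 ± 0.56 in ectoderm (adjusted p = 0.000466).

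EphB receptors bind the transmembrane ephrins. EPHB2 had 15.4 and 28.9 scaled CPM in hPSC, 41.7 and 31.7 in ectoderm, no read in mesoderm, and 35 and 39.7 in endoderm. That was at least 3.93-fold lower in mesoderm than the hPSC mean (adjusted p = 0.000762) and was not called in the other layers. EPHB3 had 2 hPSC reads, both in repeat 2, and 27 and 11 in ectoderm, 17 and 21 in mesoderm and 6 and 13 in endoderm. Its ratio to hPSC was 16.9 in mesoderm (95% interval 4.37 to 145, adjusted p = 0.00212), with a fitted difference of 3.96 that became 7.61 without hPSC repeat 2. The ectoderm and endoderm differences of 2.71 and 3.36 became 6.44 and 7.02 without it. Its ectoderm call (0.0231) was lost without hPSC repeat 1 or ectoderm repeat 1, with DESeq2 and with the length trend removed. Its endoderm call (0.016) was lost without hPSC repeat 1 or endoderm repeat 2, and with reference-matching transcripts alone (0.311). EPHB4, best known from veins, had 71.1 and 75.6 scaled CPM in hPSC, 65 and 57.4 in ectoderm, 43 and 50.7 in mesoderm and 97.9 and 119 in endoderm, and was called in no layer against hPSC. EPHB6, which lacks kinase activity, had 48 and 28.9 scaled CPM in hPSC, 16.3 and 17.1 in ectoderm, 59.1 and 52.5 in mesoderm and 44.3 and 39.7 in endoderm. It was lower in ectoderm than in hPSC by -1.21 ± 0.38 (adjusted p = 0.0153), and this call was lost without hPSC repeat 1 or either ectoderm repeat (0.125 to 0.191, with a difference of -0.78 without hPSC repeat 1).

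**Figure D3:**
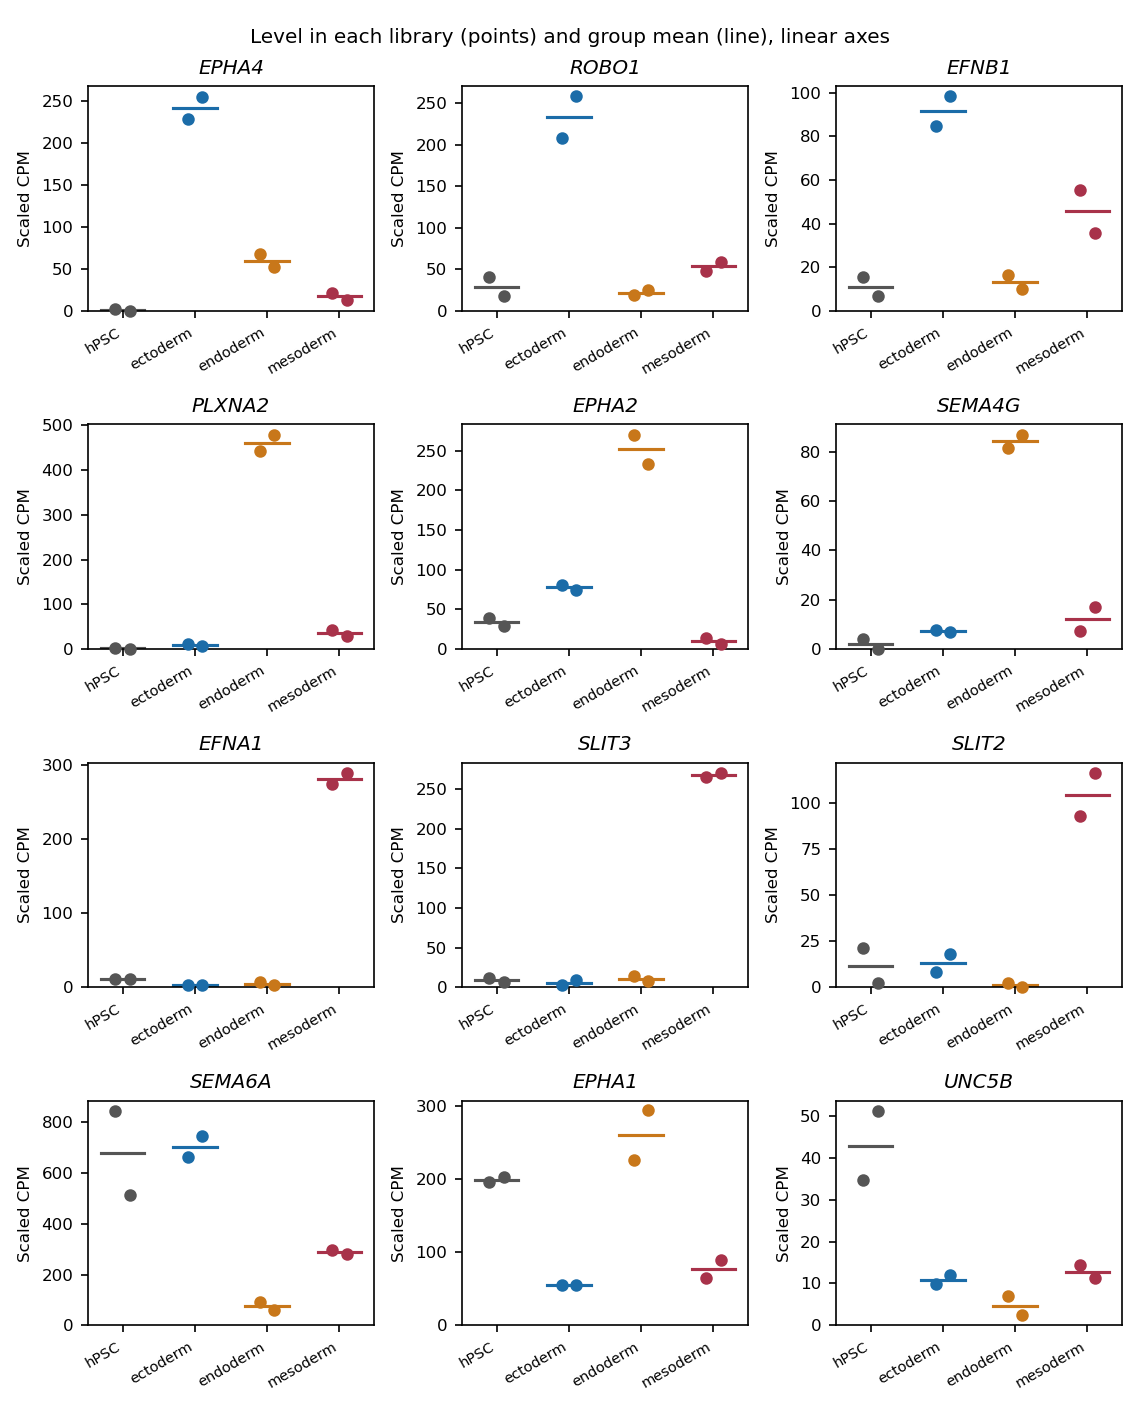
Scaled CPM of 12 genes in each library (points) with group means (lines), on linear axes that differ between panels. The top line of panels holds genes highest in ectoderm, the next genes highest in endoderm, the next genes highest in mesoderm, and the bottom line genes that fell in at least 2 layers.

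Ephrins, the ligands of these receptors, differed between the layers. EFNA1, anchored by lipid, had 11.5 and 11.1 scaled CPM in hPSC, 2.83 and 2.57 in ectoderm, 274 and 289 in mesoderm and 6.99 and 2.48 in endoderm. Both mesoderm libraries stood above all others, and the rise was 4.61 ± 0.38 (adjusted p = 4.37e-07). Its ectoderm call (-1.99 ± 0.60, adjusted p = 0.0128) rested on 7 ectoderm reads and was lost without hPSC repeat 1 or either ectoderm repeat (0.0534 to 0.0786) and with the length trend removed (-0.89, 0.29). EFNA5, a ligand of EphA receptors and of EPHB2, had 1.92 and 2.22 scaled CPM in hPSC, 31.8 and 27.4 in ectoderm, 5.38 and 9.38 in mesoderm and 6.99 and 9.92 in endoderm. Its ratio to hPSC in ectoderm was 14.5 (3.87 to 122, adjusted p = 0.000343). Of 94 EFNA5 reads, 0 were in a transcript that starts within 250 bases of its RefSeq start, and 40 matched a reference transcript. The rise was not tested with reference-matching transcripts alone.

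All 3 B-class ephrins, which span the membrane and can signal back into the cell that carries them, were called higher in mesoderm. EFNB1 had 15.4 and 6.67 scaled CPM in hPSC, 84.8 and 98.5 in ectoderm, 55.6 and 35.7 in mesoderm and 16.3 and 9.92 in endoderm. It rose by 3.0 ± 0.44 in ectoderm (adjusted p = 9.02e-05) and by 2.00 ± 0.49 in mesoderm (0.00534, lost without mesoderm repeat 1 at 1.71, 0.0637). EFNB2, a marker of arteries in the vasculature, had 1.92 and 6.67 scaled CPM in hPSC, 36.7 and 17.1 in ectoderm, 91.4 and 76.9 in mesoderm and 4.66 and 2.48 in endoderm, and rose by 4.29 ± 0.60 in mesoderm (6.5e-05) and 2.67 ± 0.66 in ectoderm (0.00392). EFNB3 had 7.68 and 4.45 scaled CPM in hPSC, 6.36 and 8.57 in ectoderm, 26.9 and 24.4 in mesoderm and 6.99 and 0 in endoderm. It rose by 2.02 ± 0.65 in mesoderm (0.0239), a call lost in 6 alternatives (adjusted p up to 0.156), among them the removal of either mesoderm repeat or of hPSC repeat 2. Summed over the family, B-class ephrins were 12.4 to 28.0 scaled CPM in the hPSC and endoderm libraries, 124 and 128 in ectoderm and 137 and 174 in mesoderm.

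Slits are large secreted proteins, and their Robo receptors sit on the cells they repel. SLIT3 had 11.5 and 6.67 scaled CPM in hPSC, 2.12 and 8.57 in ectoderm, 265 and 270 in mesoderm and 14.0 and 7.44 in endoderm, a rise of 4.83 ± 0.47 (adjusted p = 2.15e-06). Of 323 SLIT3 reads, 183 were in a transcript that starts at 168883336, inside the gene (chr5:168661733-169301129, minus strand). Only 11 matched a reference transcript, so the rise was not tested with those transcripts alone. SLIT2 had 21.1 and 2.22 scaled CPM in hPSC, 8.48 and 18.0 in ectoderm, 93.2 and 116 in mesoderm and 2.33 and 0 in endoderm. Both mesoderm libraries lay above all others, and SLIT2 rose by 3.08 ± 0.55 (0.000561). The hPSC repeats held 11 and 1 SLIT2 reads, and the difference was 5.45 without hPSC repeat 1. ROBO1 had 40.3 and 17.8 scaled CPM in hPSC, 208 and 259 in ectoderm, 48.4 and 58.2 in mesoderm and 18.6 and 24.8 in endoderm, and rose in ectoderm (2.97 ± 0.37, adjusted p = 2.78e-05) and was not called in the other layers against hPSC. It stood higher in ectoderm than in mesoderm by 2.13 ± 0.34 (0.000239) and than in endoderm by 3.42 ± 0.40 (5.49e-06). ROBO2 had 1 read in each hPSC library, 37 and 41 in ectoderm, none in endoderm and 0 and 1 in mesoderm, a ratio of 14.7 to hPSC in ectoderm (3.92 to 123, adjusted p = 0.000676). None of the 81 ROBO2 reads matched a reference transcript. Robo genes summed to 242 and 299 scaled CPM in ectoderm and 23.3 to 76.9 elsewhere, and Slit genes to 360 and 388 in mesoderm and 8.89 to 34.6 elsewhere. ROBO3, the divergent Robo, had 9.60 and 28.9 scaled CPM in hPSC, 7.77 and 5.14 in ectoderm, 10.8 and 16.9 in mesoderm and 4.66 and 4.96 in endoderm. It was lower in ectoderm than in hPSC by -1.48 ± 0.57 (0.0425), a call lost in 13 alternatives (adjusted p up to 0.679, without hPSC repeat 2).

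**Figure D4:**
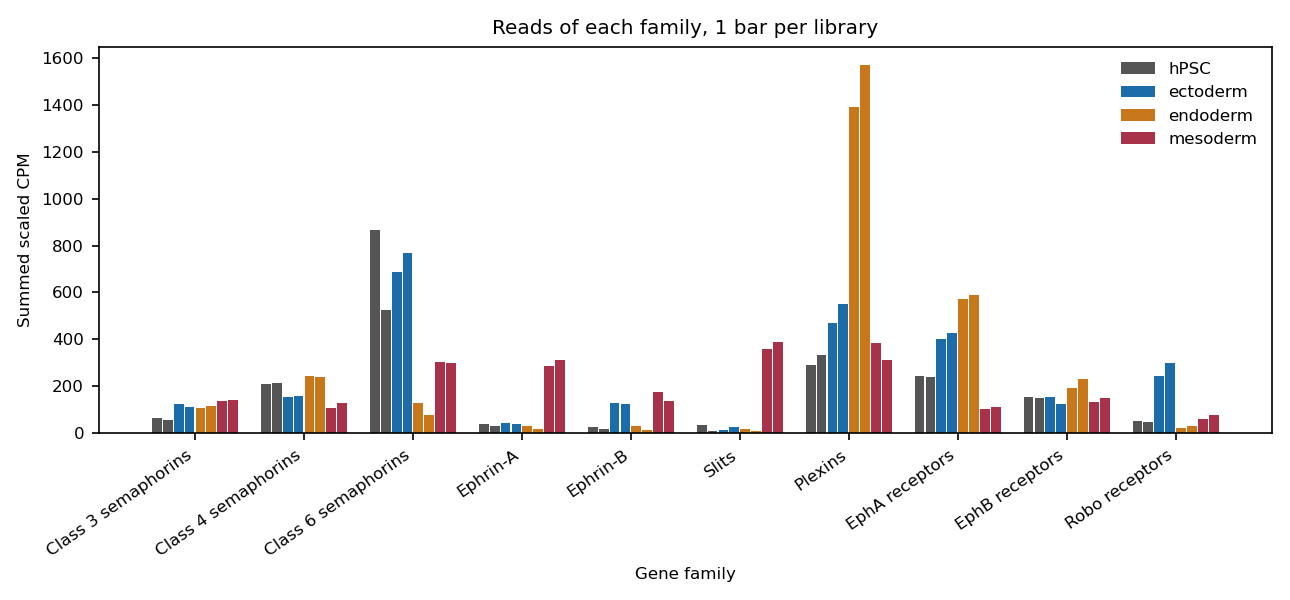
Summed scaled CPM of 10 families, 1 bar per library, coloured by group. Plexins sum to 1391 and 1570 in endoderm against 290 to 551 elsewhere, Slits to 360 and 388 in mesoderm, and Robos to 242 and 299 in ectoderm.

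Plexins are the signalling receptors for semaphorins. PLXNA2, a receptor for class 6 semaphorins, had 1.92 and 0 scaled CPM in hPSC, 10.6 and 6.0 in ectoderm, 41.2 and 30.03 in mesoderm and 443 and 479 in endoderm. Each layer lay above hPSC, and endoderm above all. The pooled ratio to hPSC was 447 in endoderm (79.7 to 17683, adjusted p = 3.63e-07) and 34.7 in mesoderm (5.87 to 1405, 0.000227). The fitted mesoderm difference went from 4.89 to 7.66 without hPSC repeat 1. In ectoderm the ratio was 8.27 (1.34 to 341, 0.0212), a call lost in 6 alternatives (adjusted p up to 0.198). Among them were DESeq2, the length trend removed, and the removal of hPSC repeat 2 or ectoderm repeat 1. The fitted ectoderm difference went from 2.83 to 5.62 without hPSC repeat 1. PLXNB2 had 113 and 125 scaled CPM in hPSC, 177 and 196 in ectoderm, 129 and 131 in mesoderm and 471 and 523 in endoderm, and rose by 2.06 ± 0.29 in endoderm (0.000121). PLXNA1 had 40.3 and 64.5 scaled CPM in hPSC, 82 and 104 in ectoderm, 53.8 and 24.4 in mesoderm and 182 and 218 in endoderm, and PLXNA3 had 11.5 and 0 scaled CPM in hPSC, 17 and 24.8 in ectoderm, 30.5 and 16.9 in mesoderm and 58.3 and 74.4 in endoderm. Both endoderm libraries exceeded all others for each gene. They rose there by 1.94 ± 0.38 (0.00158) and 3.39 ± 0.64 (0.00126), the latter against 6 and 0 hPSC reads and at 8.56 without hPSC repeat 1. Of 496 PLXNA1 reads 0 matched a reference transcript, and of 140 PLXNA3 reads 24 did. Neither rise was tested with reference-matching transcripts alone. PLXNB1, a receptor for SEMA4D, had 73 and 109 scaled CPM in hPSC, 148 and 193 in ectoderm, 104 and 86.3 in mesoderm and 203 and 218 in endoderm. It rose by 1.21 ± 0.33 (0.0121) in endoderm, lost without endoderm repeat 2 (0.0545). In ectoderm PLXNB1 was called (0.91 ± 0.32, 0.0265), but the call was lost without hPSC repeat 1 or ectoderm repeat 2 (0.0782 and 0.0935) and the difference was 0.06 with the length trend removed (0.897). Beside the 5 in endoderm, 2 of the 6 tested plexins rose in ectoderm and 1 in mesoderm. PLXND1, known from vascular endothelium, was called in no comparison, with 19.8 to 48.0 scaled CPM.

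NRP2, a neuropilin that presents class 3 semaphorins such as SEMA3F to plexins, had 28.8 and 26.7 scaled CPM in hPSC, 66.4 and 66.8 in ectoderm, 52.0 and 56.3 in mesoderm and 126 and 119 in endoderm. It rose by 2.13 ± 0.34 in endoderm (adjusted p = 0.000273) and by 1.26 ± 0.33 in ectoderm (0.00562). The ectoderm call was lost with the length trend removed (0.53, 0.214), and the mesoderm call (0.96 ± 0.35, 0.0462) in 12 alternatives (adjusted p up to 0.231), including the removal of either mesoderm repeat, either hPSC repeat or either ectoderm repeat.

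Among secreted semaphorins, SEMA3C had no read in hPSC or endoderm, 2 and 4 in ectoderm and 19 and 37 in mesoderm. The mesoderm mean was at least 7.76-fold higher than hPSC (adjusted p = 0.000194). SEMA3A, the classical repellent of sensory axons, had 15.4 and 26.7 scaled CPM in hPSC, 35.3 and 36.8 in ectoderm, 8.96 and 16.9 in mesoderm and 37.3 and 34.7 in endoderm, and was called in no layer against hPSC. SEMA3F, a ligand of NRP2, had 38.4 and 20 scaled CPM in hPSC, 61.5 and 57.4 in ectoderm, 64.5 and 41.3 in mesoderm and 46.6 and 59.5 in endoderm. Both ectoderm libraries lay above hPSC. It was called in ectoderm (1.00 ± 0.38, 0.0391; 1.57 without hPSC repeat 1), a call lost in 7 alternatives (adjusted p up to 0.137), including the removal of hPSC repeat 2 or either ectoderm repeat. SEMA3E, SEMA3B and SEMA3D were not tested, with 53, 43 and 6 reads in all.

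Among membrane-bound semaphorins, SEMA6A, a ligand of PLXNA2, had 845 and 514 scaled CPM in hPSC, 661 and 744 in ectoderm, 296 and 282 in mesoderm and 93.2 and 62.0 in endoderm. Endoderm lay below all other libraries and fell by 3.12 ± 0.36 from hPSC (adjusted p = 1.8e-05), while PLXNA2 was highest there. The mesoderm call (-1.24 ± 0.32, 0.00789) was lost without either mesoderm repeat (0.0768 and 0.0944), and ectoderm was not called (0.05 ± 0.31). SEMA4G had 2 reads in hPSC, both in repeat 1, and 35 and 35 in endoderm, against 11 and 8 in ectoderm and 4 and 9 in mesoderm. Its ratio in endoderm was 40.8 (10.9 to 344, adjusted p = 3.67e-05), and the fitted difference went from 5.23 to 8.91 without hPSC repeat 1. SEMA4D, the ligand of PLXNB1, had 48 and 60 scaled CPM in hPSC, 50.2 and 45.4 in ectoderm, 28.7 and 35.7 in mesoderm and 14 and 14.9 in endoderm. It fell in endoderm by 1.89 ± 0.43 (0.00469) and was not called in the other layers. SEMA4A had 7.68 and 37.8 scaled CPM in hPSC, 2.83 and 1.71 in ectoderm, 0 and 0 in mesoderm and 21 and 39.7 in endoderm. Mesoderm was at least 4.04-fold lower than the hPSC mean (0.00439), which was taken over repeats with 4 and 17 reads. Its ectoderm call (-3.14 ± 0.78, 0.0044) was lost without hPSC repeat 2 (-1.60, 0.257) or ectoderm repeat 2 (0.0564).

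SEMA4B had 74.9 and 62.3 scaled CPM in hPSC, 31.1 and 31.7 in ectoderm, 28.7 and 43.2 in mesoderm and 23.3 and 19.8 in endoderm. Both hPSC libraries lay above the layers, and it was called lower in all 3. These calls were weak: adjusted p was 0.00989 in ectoderm, 0.00628 in endoderm and 0.0497 in mesoderm. They were lost without either ectoderm repeat (0.119 and 0.122) and without either endoderm repeat (0.0519 and 0.0791), and in mesoderm in 14 alternatives (up to 0.348, without mesoderm repeat 1). SEMA5A, a semaphorin with thrombospondin repeats, had 3.84 and 4.45 scaled CPM in hPSC, 14.8 and 20.6 in ectoderm, 64.5 and 61.9 in mesoderm and 23.3 and 42.2 in endoderm. It rose by 3.88 ± 0.55 in mesoderm (7.42e-05) and 2.93 ± 0.63 in endoderm (0.00302), and its ectoderm call (2.04 ± 0.62, 0.0136) was lost without hPSC repeat 1 or ectoderm repeat 2 (0.0511 and 0.0512) and with the length trend removed (0.94, 0.285). SEMA5B had 36.5 and 11.1 scaled CPM in hPSC, 55.8 and 73.7 in ectoderm, 17.9 and 9.38 in mesoderm and 11.7 and 32.2 in endoderm. It was called in ectoderm (1.39 ± 0.47, 0.0219), lost without hPSC repeat 2 or ectoderm repeat 2, with DESeq2 and with the length trend removed. Without hPSC repeat 1 the difference was 2.52, and without hPSC repeat 2 it was 0.88. SEMA4C had 59.5 and 37.8 scaled CPM in hPSC, 36 and 42 in ectoderm, 28.7 and 30 in mesoderm and 93.2 and 64.5 in endoderm, and SEMA4F had 13.4 and 15.6 scaled CPM in hPSC, 25.4 and 31.7 in ectoderm, 12.5 and 3.75 in mesoderm and 11.7 and 12.4 in endoderm. Neither was called in a layer against hPSC.

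Netrins and their receptors were thinly covered. NTN1 and NTN4 had 16 and 32 reads in all and DCC had 4, so none was tested. UNC5B, a netrin receptor that mediates repulsion, had 34.6 and 51.1 scaled CPM in hPSC, 9.89 and 12 in ectoderm, 14.3 and 11.3 in mesoderm and 6.99 and 2.48 in endoderm. Both hPSC libraries lay above all others. It fell by 3.10 ± 0.61 in endoderm (adjusted p = 0.00158) and by 1.95 ± 0.41 in ectoderm (0.00128). The mesoderm call (-1.71 ± 0.46, 0.00994) was lost without hPSC repeat 2 (0.0585) or either mesoderm repeat (0.0608 and 0.0996) and with DESeq2 (0.115).

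The layers were then compared with each other. Between ectoderm and endoderm 24 genes were called, 12 higher in each, or 63.2% against 63.1% of all tested (33.1% higher in ectoderm and 29.9% in endoderm), and with library totals alone the split was 15 higher in ectoderm and 6 in endoderm, with the length trend removed 8 and 17. Between ectoderm and mesoderm 23 were called (60.5% against 35.4%), 14 higher in ectoderm and 9 in mesoderm, against 18.2% and 17.2% of all tested. Between endoderm and mesoderm 25 were called (65.8% against 47.1%), 16 higher in endoderm and 9 in mesoderm, against 23.2% and 23.9% of all tested, which became 10 and 15 with library totals alone. Library totals alone shifted the median of all genes by 0.45, -0.35 and 0.25 against hPSC in ectoderm, endoderm and mesoderm, by 0.81 between ectoderm and endoderm, 0.21 between ectoderm and mesoderm, and -0.60 between endoderm and mesoderm. Differences are stated relative to the TMM scaling.

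Between endoderm and mesoderm, of 19 receptors 12 were higher and 1 lower in endoderm, and of 19 ligands 4 were higher and 8 lower. Over all tested, 23.2% were higher and 23.9% lower. This split moved with the scaling. With library totals alone the receptors NRP2, PLXNA3, PLXNB1 and EPHB4 and the ligands SEMA3A and SEMA4C lost their calls. The receptors EPHB6, UNC5B and ROBO3 and the ligands SEMA4B, SEMA4D and SEMA5A gained calls. PLXNA2 differed between ectoderm and endoderm by -5.74 ± 0.40 (adjusted p = 7.24e-08), SEMA6A by 3.17 ± 0.36 (4.01e-06) and EPHA1 by -2.24 ± 0.31 (2.23e-05). EFNA1 differed between ectoderm and mesoderm by -6.61 ± 0.40 (3.76e-08) and SLIT3 by -5.66 ± 0.44 (3.01e-07). The ectoderm mean of EPHA7 was at least 6.88-fold higher than mesoderm (4.79e-05). EPHA2 was higher in endoderm than in mesoderm by 4.62 ± 0.42 (9.43e-07). These 7 calls held in every alternative that tested them.

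Among 14 genes with at least 2 tested transcripts, 1 gene, PLXNB2, was called for a change in which transcript was used, in all 3 layers (edgeR's diffSpliceDGE, adjusted p of 0.00434, 0.00281 and 0.0121 in ectoderm, endoderm and mesoderm). Over 2638 genes the shares called were 5.95%, 4.89% and 6.94%, so 1 gene of 14 is close to the share over all genes. PLXNB2 lies on the minus strand of chromosome 22, and its transcripts start at 5 places. None starts within 250 bases of the start that RefSeq lists, at 50301669. Those starting between 50307603 and 50307646, the upstream edge, held 42.4% and 39.3% of PLXNB2 reads in hPSC, 64.9% and 68.6% in ectoderm, 58.3% and 64.3% in mesoderm and 65.3% and 59.2% in endoderm. Those starting between 50300349 and 50300534, which is 7112 bases further on, held 44.1% and 42.9% in hPSC (26 and 24 reads), 18.3% and 14.4% in ectoderm, 19.4% and 17.1% in mesoderm and 18.3% and 21.8% in endoderm. In reads that cluster held 46 and 33 in ectoderm, 14 and 12 in mesoderm and 37 and 46 in endoderm. A lower share was therefore not always fewer reads. Within that cluster, 1 transcript of 37 exons that starts at 50300349 held 19 and 15 reads in hPSC, 19 and 17 in ectoderm, 5 and 4 in mesoderm and 17 and 14 in endoderm. Its share of PLXNB2 reads was 32.2% and 26.8% in hPSC and 5.71% to 8.42% in the layers. The call did not hold with fewer libraries: it was lost without hPSC repeat 2 or either ectoderm repeat in ectoderm, without hPSC repeat 1 or either endoderm repeat in endoderm, and without any 1 of the hPSC or mesoderm libraries in mesoderm. Endoderm and hPSC libraries had transcripts of similar mean length (3073 and 2975 against 3298 and 3114 nucleotides), while ectoderm was longer, and whether incomplete reads set part of the start shares was not tested.

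**Figure D5:**
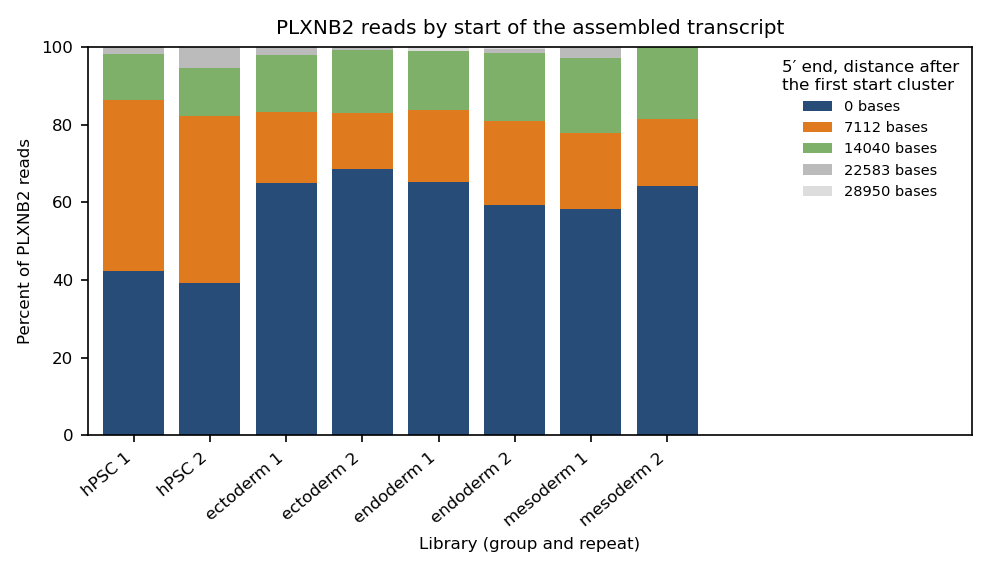
Stacked bars of the percent of PLXNB2 reads in each library by the start of their assembled transcript, coloured by the distance in bases after the most upstream starts. In both hPSC libraries the cluster 7112 bases downstream holds over 42%, and in the 6 layer libraries it holds 14.4% to 21.8%.

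Genes that work beside these receptors were counted from lists written with earlier results of these data known. Of 28 coreceptors and other guidance cues, 17 were tested: 6 rose and 2 fell in ectoderm, 5 rose and 3 fell in endoderm, and 5 rose and 2 fell in mesoderm. That is 47.1%, 47.1% and 41.2% called, against 48.6%, 27.2% and 35.1% of all tested. NRP1, the other neuropilin, had 1 and 2 reads in hPSC, 2 and 0 in ectoderm, 49 and 38 in mesoderm and 14 and 18 in endoderm, and its rise passed the test in endoderm (adjusted p = 0.0013) and mesoderm (3.11e-05). UNC5C, a netrin receptor, had 1 hPSC read and 30 and 33 in mesoderm. FLRT3, which binds Robo and UNC5 proteins, rose in all 3 layers (adjusted p of 0.000109, 0.00369 and 2.31e-07), from 1 hPSC read to 126 and 105 in mesoderm. Of 50 genes listed for signalling inside the cell, 42 were tested. In ectoderm 13 rose and 8 fell, in endoderm 3 rose and 7 fell, and in mesoderm 10 rose and 9 fell. The shares called, 50%, 23.8% and 45.2%, stand beside the same 48.6%, 27.2% and 35.1%. From this list, ADAM10, a protease that cuts ephrins and Eph receptors, rose by 3.15 ± 0.37 in ectoderm (adjusted p = 1.44e-05) and 1.93 ± 0.37 in mesoderm (0.000974). A link to ephrin levels was not tested. The kinase PAK1 fell by 1.91 ± 0.30, 2.07 ± 0.32 and 2.04 ± 0.32 in ectoderm, endoderm and mesoderm, and DPYSL2 (CRMP2), which carries the semaphorin signal to microtubules, by 1.48 ± 0.36, 1.5 ± 0.38 and 3.39 ± 0.43. With library totals alone the splits were 17 and 5, 1 and 9, and 12 and 9 for the genes inside the cell, and 7 and 2, 4 and 4, and 5 and 0 for the coreceptors.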

How the data were processed

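Polyadenylated RNA of 8 H1 libraries was read on a PacBio Sequel II instrument. The submitters' processing notes name minimap2, StringTie and GRCh38, without versions; the counting method, its use of strand and the annotation release are not given in the sources used here. The authors deposited a combined table of raw read counts per assembled transcript. The authors' 2 endoderm columns, treated under the unit expected counts because their short name reads as a position, hold whole raw counts like the rest. Short-read libraries were not analysed here.

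Transcripts with a gene name in the authors' combined assembly were summed per gene, and other transcripts were kept as loci of their own. Libraries were scaled by TMM, filtered with filterByExpr (minimum count 10) and fitted together with edgeR 4.0.16 (quasi-likelihood test, Benjamini-Hochberg over all 10847 genes or loci tested, called under 0.05). Transcript choice was tested with diffSpliceDGE. Scaled CPM is reads per 1000000 of the TMM-scaled total. Folds against a group at 0 divide the mean of the other group by 3 counts in the shallower library of the group at 0. They leave out the spread of that mean. Ratios against 1 to 3 reads pool repeats and carry 95% exact conditional binomial intervals. Both cover counting error only. Starts and windows come from RefSeq on GRCh38.p14, and gene spans from GENCODE 29.

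The tests across genes were tested on simulated counts. Values in every library are given for genes called in at least 1 comparison that had 10 CPM or more in both libraries of a group. The genes and lists were chosen with earlier results of these data known. Alternatives were another scaling, no or stricter filters, DESeq2 1.42.0, a replicate block, thinning, a length trend, reference-matching transcripts and leaving out each library. Added after seeing the data were library totals alone, transcripts listed by position, and counts of the pathway lists under every alternative. 1 marker gene is not reported here.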

Additional observations from a re-analysis of the deposited data

Results flagged for a closer look

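EFNA1 and EPHA2 were called in opposite directions in different layers against the same hPSC libraries. EFNA1 was higher in mesoderm and lower in ectoderm, and the layers themselves differed by -6.61 ± 0.40 (ectoderm minus mesoderm, log2, adjusted p = 3.76e-08). EPHA2 was higher in ectoderm and endoderm and lower in mesoderm, and ectoderm exceeded mesoderm by 2.92 ± 0.43 (adjusted p = 0.000101) and endoderm exceeded it by 4.62 ± 0.42 (adjusted p = 9.43e-07). The lower calls, EFNA1 in ectoderm and EPHA2 in mesoderm, were lost in some alternatives, as given above.

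Reads that the authors' table lists under a gene by position only, without its name in the assembly, were left out of the gene sums. They lay in 86 transcripts, and many of their loci had too few reads for a test. Only loci called against hPSC are described, and their share was not set beside that over all loci. A locus inside PLXNA2 (chr1:208220600-208229543) had 1 and 0 reads in hPSC and 31 and 25 in endoderm (fitted log2 difference 5.80, adjusted p = 6.15e-05), where PLXNA2 rose too. A locus inside ROBO1 (chr3:78917100-78931236) had 0 and 2 reads in hPSC and 27 and 26 in ectoderm (3.21, 0.00316), where ROBO1 rose. At EFNA5, which rose in ectoderm, 3 loci were higher there. The first (chr5:107465064-107488764) had no hPSC read and 26 and 20 in ectoderm (6.62, 0.000874), and was higher in mesoderm with 3 and 4 reads (5.18, 0.0324). The next (chr5:107521477-107539062) had 1 and 0 reads in hPSC and 29 and 26 in ectoderm (4.15, 0.00101), and the last (chr5:107564614-107580471) 1 and 0 in hPSC and 34 and 26 in ectoderm (4.27, 0.00264). A locus inside SLIT3 (chr5:169141055-169176954) had 1 and 0 reads in hPSC and 21 and 40 in mesoderm (5.54, 0.00011). Fitted differences against 0 to 2 reads are no bounds.

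A locus listed under SEMA3E lies on the opposite strand to it (chr7:83460014-83465347). It had 247 and 270 reads in hPSC, 23 and 22 in ectoderm, 1 and 0 in mesoderm and 13 and 16 in endoderm, and was lower in ectoderm, endoderm and mesoderm (fitted log2 differences -4.93, -3.94 and -8.93; adjusted p of 1.66e-07, 2.79e-06 and 7.07e-08). SEMA3E itself had 53 reads in all and was not tested. Whether the counting used strand is not given in the sources used here.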

How the results depend on the processing

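Of 128 calls for the genes described with values, 73 held in every alternative that tested them and 55 were lost in at least 1. None of 2362 recomputed values changed direction. Against hPSC, 10 of 22 ectoderm calls, 12 of 15 endoderm calls and 11 of 19 mesoderm calls held throughout. In ectoderm the count of genes called fell from 22 to 14 with DESeq2 (10 higher, 4 lower) and to 14 with the length trend removed and a replicate block (8 and 6), while over all genes the share called went from 48.6% to 30.9% and 32.9%. Between ectoderm and mesoderm it fell from 23 to 15 at a minimum count of 30 (8 and 7), and the 8 genes lost were not tested there. Over all genes the share called went from 35.4% to 42.3%. PLXNB2 transcript choice gave 0 calls in each layer at that minimum. Among the 42 tested genes listed for signalling inside the cell, DESeq2 called 13 in ectoderm and 6 in endoderm. Over all genes it called 30.9% and 16.9%. The length trend with a replicate block called 13 in ectoderm (32.9% of all genes), and reference-matching transcripts 6 in endoderm (25.9% of all genes). The cause of these shifts was not tested. Splits moved with no filter in ectoderm (20 higher, 3 lower) and with reference-matching transcripts between endoderm and mesoderm (10 and 10).

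Leaving out 1 library at a time gave 15 to 25 calls in ectoderm, 14 to 21 in endoderm and 13 to 21 in mesoderm against hPSC, 17 to 27 between ectoderm and endoderm, 16 to 27 between ectoderm and mesoderm and 17 to 31 between endoderm and mesoderm. Transcript choice gave 0 to 1 genes in each layer. The coreceptors and cues gave 7 to 11, 5 to 8 and 5 to 11 in ectoderm, endoderm and mesoderm, and the genes inside the cell 15 to 23, 4 to 14 and 13 to 24. Where this left a group with 1 library, that library was assumed to vary like the other groups.

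Repeats share numbers across groups, but the labels do not say that these pair the samples. The correlation of repeat differences between groups was -0.03 to 0.13, which cannot show whether repeats were handled together. With a replicate block the 6 comparisons gave 21, 15, 17, 23, 22 and 25 calls. With transcripts listed by position summed in, they gave 22, 18, 22, 26, 24 and 28. The 20 untested genes, among them the netrins and DCC, had too few reads for a test at this depth, and whether depth or low expression set those counts was not tested. Counting error is large in every ratio against 1 or 2 hPSC reads.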
